A study of Mus musculus with 24 samples.

Results

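The genes described here encode DARPP-32 and other transducers of dopamine and cyclic AMP signals in the striatum. They were taken by name from the read-count table: Ppp1r1b, Arpp21, Arpp19, Ptpn5, Rgs9, Rasd2, Gnal, Gng7, Strn and Itpka, which are 10 of its 54532 genes. All 10 were found, and all 10 were among the 19667 genes that passed the filter on low counts. RNA was sequenced from the striatum of 24 mice of the strain C57BL/6, 6 of each of 4 genotypes, with 3 males (replicates 1 to 3) and 3 females (replicates 4 to 6) in each. WT mice carried neither allele, TyrobpKO mice lacked Tyrobp, Q175 mice were heterozygous for the Q175 allele, and Q175_TyrobpKO mice were heterozygous for Q175 and lacked Tyrobp. The Q175 allele lengthens the CAG repeat of mouse Htt, as in the mutation of Huntington's disease. The product of Tyrobp is an adaptor of microglial surface receptors. Each library came from the striatum of 1 hemisphere of 1 animal, and the labels give no age. The animal numbers of Q175 mice share a prefix that only WT replicate 3 has among the WT mice, so that what the prefix stands for and the genotype cannot be told apart there; both genotypes without Tyrobp share 1 prefix.

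Medium spiny projection neurons make up most of the striatum. Dopamine receptors encoded by Drd1 and adenosine receptors encoded by Adora2a act in these cells through a stimulatory G protein of the olfactory type (Gnal with the gamma subunit Gng7) and adenylyl cyclase to raise cyclic AMP, and protein kinase A then converts DARPP-32 into an inhibitor of protein phosphatase 1. RGS9 shortens the life of active inhibitory G proteins in the same cells, and the tyrosine phosphatase STEP, which protein kinase A inactivates, dephosphorylates MAP kinases and glutamate receptors.

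The libraries held 25482686 to 34626720 counts. Levels are TMM-scaled CPM, a gene's count relative to the scaled total of its library, and a gene was called at an adjusted p under 0.05 from edgeR's quasi-likelihood test with Benjamini-Hochberg adjustment over all 19667 genes. Fold changes are log2 with their standard error. Tyrobp averaged 7.88 ± 1.15 CPM in WT and 8.68 ± 2.10 in Q175 (SD, n = 6), against 0.341 ± 0.0926 in TyrobpKO and 0.260 ± 0.0423 in Q175_TyrobpKO. Htt was at 209 to 233 CPM in WT and at 137 to 177 in Q175, and the length of its repeat is not read by such counts. Markers of striatal projection neurons were abundant in every library, with a summed level of 5399 to 13366 CPM over 16 genes. Markers of cortical excitatory neurons were present too and uneven, at 148 to 1135 CPM over 12 genes, none of them at 0 in any library. Q175 replicate 3 stood apart in markers of choroid plexus, with 4225 CPM over 10 genes, against 608 or less in the other libraries; without it 8 of the 10 genes were called in Q175 against WT, as with it.

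Promoter sequence was matched in RefSeq (GRCm38.p6) for 8 of the 10 genes, with 19 annotated starts. The 250 bases upstream of a start are shown for 3 of them: Arpp19 and Itpka, whose levels were correlated least with those of the other genes within genotypes, and Rgs9, which varied with the other 7. Motifs were searched in the same 250 bases before each of the 19 starts. The sequences are written 5′ to 3′ on the strand of the gene, and capitals mark the letters of GC boxes (GGGCGG or CCGCCC) and of a TATA box (TATAAA or TTTATA).
Arpp19, chr9:75037364-75037613, plus strand: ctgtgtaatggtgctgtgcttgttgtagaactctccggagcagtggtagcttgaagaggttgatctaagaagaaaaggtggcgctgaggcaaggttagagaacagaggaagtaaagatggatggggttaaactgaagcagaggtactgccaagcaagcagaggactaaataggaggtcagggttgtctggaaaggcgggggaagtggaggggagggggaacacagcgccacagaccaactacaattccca
Itpka, chr2:119742087-119742336, plus strand: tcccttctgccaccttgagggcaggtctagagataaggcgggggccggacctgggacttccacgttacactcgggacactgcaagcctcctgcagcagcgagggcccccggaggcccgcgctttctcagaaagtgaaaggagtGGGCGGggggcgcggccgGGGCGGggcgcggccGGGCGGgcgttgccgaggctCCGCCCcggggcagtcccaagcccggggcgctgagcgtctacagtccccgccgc
Rgs9, chr11:109298182-109298431, minus strand: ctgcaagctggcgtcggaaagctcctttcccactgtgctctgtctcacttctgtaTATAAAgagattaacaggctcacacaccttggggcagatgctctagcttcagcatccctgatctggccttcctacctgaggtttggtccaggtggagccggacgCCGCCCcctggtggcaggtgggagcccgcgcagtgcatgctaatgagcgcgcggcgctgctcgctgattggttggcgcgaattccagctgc
The Itpka window was 72.8% G and C, that of Rgs9 59.6% and that of Arpp19 51.2%, against a median of 52.4% over the 32851 promoters of the same table. No match of any motif searched was found in the Arpp19 window. The cyclic AMP response element TGACGTCA was in none of the 19 windows and in 1.55% of all promoters. Its core TGACG, searched with CGTCA on the other strand and contained in the full element, was in 4 of the 19 windows (of Arpp21, Gng7 and Strn) and in 17.8% of all promoters. GC boxes were in 5 of the 19 windows, those of Ptpn5, Rgs9, Gng7, Strn and Itpka, and in 32.7% of all promoters. Counted by gene, that is 5 of the 8. Arpp21 has more of the 19 windows than any other gene, some of them overlapping, and none of its windows held a GC box. The TATA letters were in the Rgs9 window alone among the 19 and in 12.4% of all promoters.

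Per kilobase of transcript, Ppp1r1b had the highest level of the 10 genes in WT striatum, at 504 ± 88.3 CPM per kilobase (SD, n = 6). Gng7 followed at 276, Rasd2 at 248, Gnal at 149, Arpp19 at 127, Ptpn5 at 116, Rgs9 at 111, Arpp21 at 75.9, Itpka at 70.5 and Strn at 58.5. In that order only Ppp1r1b stood clear of its neighbour, and the ranges over WT libraries overlapped for every other neighbouring pair. In Q175 striatum the range of Ppp1r1b, at 304 ± 49.8, overlapped that of Gng7, at 223 ± 29.7. Arpp19 stood below Ptpn5 there, at 71.2 against 79.1, with overlapping ranges. The lengths are those of the count table, and the transcripts used in the striatum were not measured.

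The first question of the design is what the Q175 allele did to striatal transcripts when Tyrobp was present. In Q175 against WT, 8 of the 10 genes fell and none rose, where 5.47% of all genes tested were called lower, 4.15% higher and 9.63% in either direction. Arpp21 and Arpp19 fell most, by 0.89 and 0.84, and Gnal and Gng7 were not called, at -0.27 and -0.31. For 6 genes every Q175 library was below every WT library, against 2.39% of all genes. The median log2 fold change was -0.57 for the 10 genes and 0.01 for all genes. The summed level of the 10 genes was 5376 ± 501 CPM in Q175 and 8147 ± 1171 in WT (SD, n = 6). In bulk tissue, fewer cells of a type and less RNA per cell cannot be told apart.

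The second question is what the allele did where Tyrobp was deleted. In Q175_TyrobpKO against TyrobpKO, 4 of the 10 genes fell (Arpp21, Arpp19, Strn and Itpka) and none rose, where 3.08% of all genes were called lower, 2.78% higher and 5.86% in either direction. All 10 values were negative, with a median of -0.37 against 0.00 for all genes. The groups did not overlap for 3 of the genes (Arpp21, Arpp19 and Itpka), against 2.27% of all genes.

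**Figure D1:**
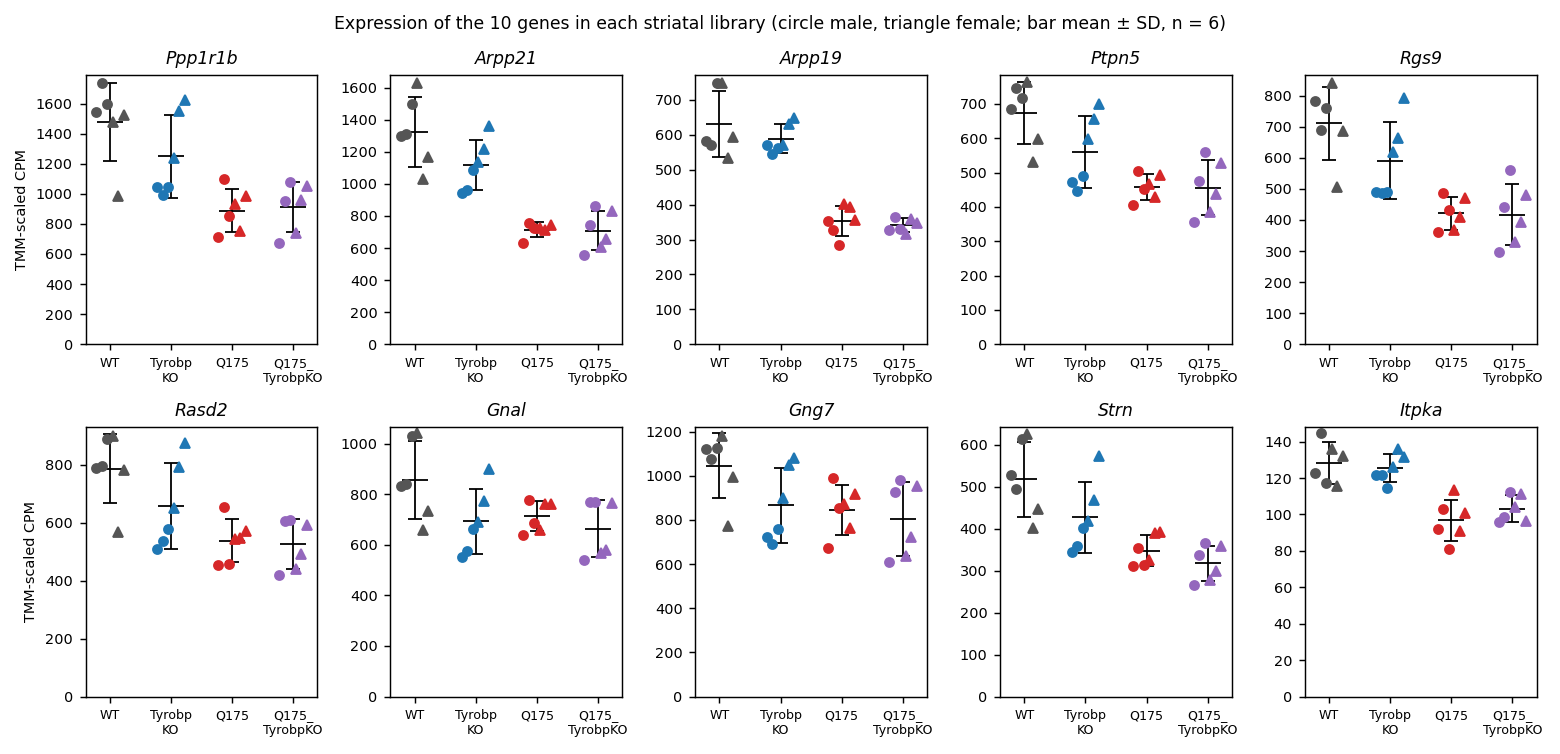
Level of each of the 10 genes in every library, in CPM after TMM scaling on an axis from 0, by genotype, with males as circles and females as triangles and bars for the mean and SD of 6 libraries. Both Q175 genotypes lie below WT for Arpp21, Arpp19 and Itpka, and the 4 genotypes overlap for Gnal and Gng7.

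Ppp1r1b (ENSMUSG00000061718, chromosome 11, 98348404 to 98357796, plus strand) encodes DARPP-32. Across WT mice the lowest value was 983, the median 1532 and the highest 1739 CPM. In Q175 these values were 715, 890 and 1100 CPM. The groups overlapped only through WT replicate 5, a female at 983 CPM, since the other 5 WT libraries were at 1475 or more. Ppp1r1b fell by 0.74 ± 0.16 in Q175 against WT (edgeR adjusted p = 0.00382). In TyrobpKO it ranged from 992 to 1626 CPM with a median of 1142, and in Q175_TyrobpKO from 674 to 1078 with a median of 958. These groups overlapped, and the difference of -0.45 ± 0.16 was not called (edgeR adjusted p = 0.0998).

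Arpp21 (ENSMUSG00000032503, chromosome 9, 112065091 to 112235938, minus strand) encodes a second cyclic AMP-regulated phosphoprotein of the striatum, which binds RNA and of which a short form, RCS, binds calmodulin. WT libraries ranged from 1028 to 1629 CPM with a median of 1304, and Q175 libraries from 629 to 756 with a median of 725. No Q175 library reached the lowest WT library, and the fall was 0.89 ± 0.11 (edgeR adjusted p = 1.01e-05). TyrobpKO libraries lay at 942 to 1359 CPM and Q175_TyrobpKO libraries at 558 to 861, again without overlap. The fall there was 0.65 ± 0.11 (edgeR adjusted p = 0.00072). The table counts the gene as a whole, so its long and short forms were not separated, and reads may be shared with 3 genes that overlap it, among them Mir128-2.

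Arpp19 (ENSMUSG00000007656, chromosome 9, 75037614 to 75060313, plus strand) encodes an inhibitor of protein phosphatase 2A that is active once the kinase MASTL has phosphorylated it, and it is a substrate of protein kinase A. Its WT values ran from 534 to 749 CPM with a median of 589. In Q175 they ran from 285 to 401 with a median of 355. Every Q175 library was below every WT library. Of the 10 genes it had the smallest p in both Q175 contrasts. The fall was 0.84 ± 0.08 in Q175 against WT (edgeR adjusted p = 5.33e-08). TyrobpKO libraries ranged from 546 to 649 CPM and Q175_TyrobpKO libraries from 316 to 364, and the fall between them was 0.78 ± 0.08 (edgeR adjusted p = 3.61e-07). Its paralog Ensa, which encodes another inhibitor of the same phosphatase, was at 0.05 ± 0.07 in both contrasts and was not called (edgeR adjusted p = 0.708 and 0.743).

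Ptpn5 (ENSMUSG00000030854, chromosome 7, 47077795 to 47133684, minus strand) encodes STEP. It ranged from 531 to 765 CPM in WT, with a median of 702, and from 404 to 506 in Q175, with a median of 459. All Q175 libraries were lower than all WT libraries, and the fall was 0.56 ± 0.12 (edgeR adjusted p = 0.00363). In TyrobpKO the values ran from 446 to 699 CPM and in Q175_TyrobpKO from 355 to 559. The groups overlapped, and the difference of -0.29 ± 0.12 was not called (edgeR adjusted p = 0.187). Ptpn5 lies 16.7 Mb from Tyrobp on the same chromosome, so that in contrasts across the deletion an allele carried along with it cannot be told apart from the deletion.

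Rgs9 (ENSMUSG00000020599, chromosome 11, 109225355 to 109298129, minus strand) encodes a GTPase-activating protein whose long form is enriched in striatum. WT libraries lay at 505 to 841 CPM with a median of 725, and Q175 libraries at 360 to 486 with a median of 422. The groups did not overlap, and Rgs9 fell by 0.76 ± 0.16 (edgeR adjusted p = 0.00288). TyrobpKO libraries lay at 488 to 793 CPM and Q175_TyrobpKO libraries at 298 to 562. That difference was -0.50 ± 0.16 and was not called (edgeR adjusted p = 0.0638), but it was called without WT replicate 5 (0.0487) or without Q175_TyrobpKO replicate 3 (0.0176), by DESeq2 (0.0316) and by limma-voom (0.0333).

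Rasd2 (ENSMUSG00000034472, chromosome 8, 75213944 to 75224113, plus strand) encodes Rhes, a small GTPase of striatal neurons that binds mutant Huntingtin. Its level ranged from 566 to 899 CPM in WT with a median of 792, and from 452 to 652 in Q175 with a median of 545. The overlap came from WT replicate 5 alone, at 566 CPM, with the other 5 at 780 or more. Rasd2 fell by 0.55 ± 0.14 (edgeR adjusted p = 0.0131). Between Q175_TyrobpKO (418 to 608 CPM) and TyrobpKO (508 to 875 CPM) the groups overlapped and the difference of -0.31 ± 0.14 was not called (edgeR adjusted p = 0.225).

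Gnal (ENSMUSG00000024524, chromosome 18, 67088336 to 67226792, plus strand) encodes the alpha subunit of the olfactory-type stimulatory G protein. It ranged from 659 to 1041 CPM in WT with a median of 835, and from 637 to 776 in Q175 with a median of 723. Most of the Q175 range lay within the WT range, and the difference of -0.27 ± 0.13 was not called (edgeR adjusted p = 0.226). In Q175_TyrobpKO against TyrobpKO, at 538 to 770 and 553 to 900 CPM, the difference was -0.06 ± 0.13 (edgeR adjusted p = 0.874). Its 95% interval ran from -0.31 to 0.20.

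Gng7 (ENSMUSG00000048240, chromosome 10, 80948624 to 81014945, minus strand) encodes the gamma subunit that assembles with the product of Gnal. WT libraries lay at 773 to 1180 CPM with a median of 1099, and Q175 libraries at 673 to 989 with a median of 862. The ranges overlapped, and the difference of -0.31 ± 0.14 was not called (edgeR adjusted p = 0.197). Q175_TyrobpKO libraries lay at 610 to 979 CPM and TyrobpKO libraries at 689 to 1081, and the difference was -0.10 ± 0.14 (edgeR adjusted p = 0.781). With the effect of Q175 averaged over both Tyrobp genotypes, Gnal was at -0.16 and Gng7 at -0.20, the only ones of the 10 not called (8 fell) in a contrast where 18% of all genes were called and 9.17% were called lower (edgeR adjusted p = 0.253 and 0.181).

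Strn (ENSMUSG00000024077, chromosome 17, 78649913 to 78737196, minus strand) encodes striatin, a calmodulin-binding scaffold that holds protein phosphatase 2A in the STRIPAK complex. It ranged from 401 to 625 CPM in WT with a median of 510, and from 311 to 392 in Q175 with a median of 340. All Q175 libraries were lower, and the fall was 0.58 ± 0.12 (edgeR adjusted p = 0.00263). TyrobpKO libraries lay at 344 to 574 CPM and Q175_TyrobpKO libraries at 266 to 365. The fall of 0.42 ± 0.12 was called (edgeR adjusted p = 0.0379), but that call was lost on leaving out any 1 of 9 libraries, namely WT replicates 1 or 2, TyrobpKO replicates 3, 4, 5 or 6, or Q175_TyrobpKO replicates 1, 4 or 5 (edgeR adjusted p from 0.0564 to 0.116). The same call was lost with scaling by total counts only, without the filter on low counts and with only the compared libraries fitted (edgeR adjusted p = 0.0516, 0.0979 and 0.0586).

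Itpka (ENSMUSG00000027296, chromosome 2, 119742337 to 119751263, plus strand) encodes a neuronal kinase of inositol trisphosphate that also bundles actin in dendritic spines. Its WT values ran from 116 to 145 CPM with a median of 128, and its Q175 values from 81.0 to 113 with a median of 96.4. No Q175 library reached the WT range, and the fall was 0.41 ± 0.07 (edgeR adjusted p = 0.000193). TyrobpKO libraries lay at 115 to 136 CPM and Q175_TyrobpKO libraries at 95.9 to 112. They did not overlap either, and the fall was 0.28 ± 0.07 (edgeR adjusted p = 0.0117).

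**Figure D2:**
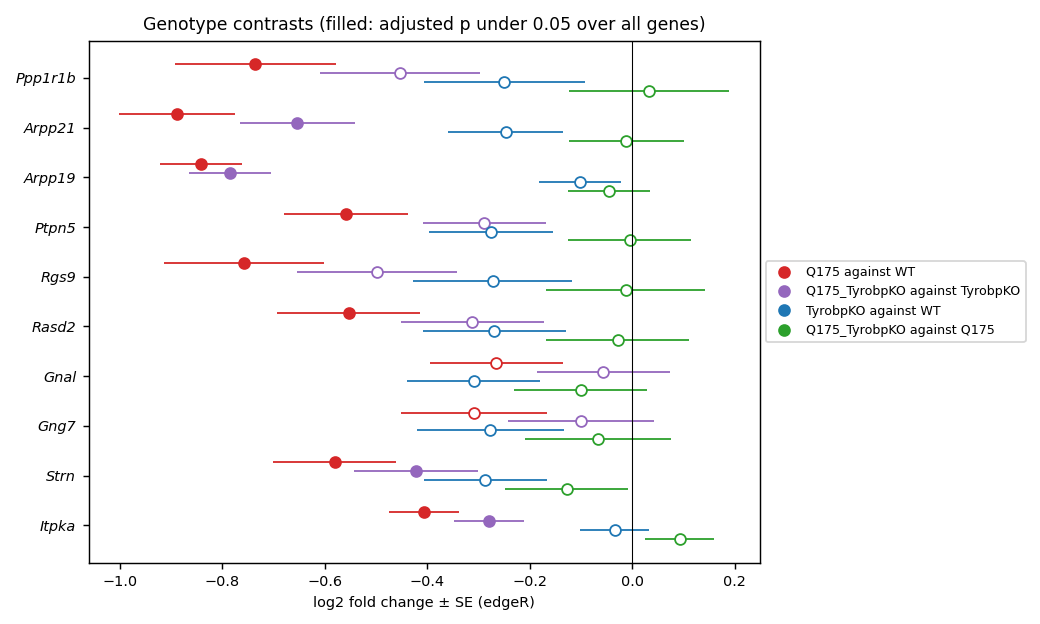
Log2 fold change of each gene with its standard error in 4 genotype contrasts from edgeR, with filled points for an adjusted p under 0.05 over all genes. The 8 filled points of Q175 against WT and the 4 of Q175_TyrobpKO against TyrobpKO lie below 0, and no point of the contrasts across the Tyrobp deletion is filled.

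Deletion of Tyrobp called none of the 10 genes. In TyrobpKO against WT all 10 values were negative, from -0.31 for Gnal to -0.03 for Itpka, and edgeR called 0.117% of all genes. The adjusted p was 0.749 or more for each. In edgeR 4 of them (Arpp21, Ptpn5, Gnal and Strn) had an unadjusted p under 0.05, as had 1269 of all 19667 genes tested. These 4 varied together within genotype and sex, with Pearson's r of log2 CPM from 0.81 to 0.97, so they are not 4 separate results. DESeq2 and limma-voom also called 0 of the 10. In Q175_TyrobpKO against Q175, where edgeR called 0.158% of all genes, the values ran from -0.13 for Strn to 0.09 for Itpka. None had an unadjusted p under 0.05, and DESeq2 and limma-voom called 0.

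The difference between the Q175 effects with and without Tyrobp was tested as an interaction. It was positive for all 10, from 0.06 for Arpp19 to 0.28 for Ppp1r1b. None was called by edgeR (adjusted p = 0.999 for each), none had an unadjusted p under 0.05, and edgeR called 0% of all genes, with 707 of the 19667 under an unadjusted 0.05. DESeq2 and limma-voom called 0 of the 10. For Ppp1r1b the 95% interval of the interaction ran from -0.15 to 0.72, and for Arpp19 from -0.17 to 0.28.

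Females and males did not differ in a called way. Over all genotypes the female values were higher by 0.04 to 0.10 on the log2 scale, edgeR called 0 of the 10 and 0.0814% of all genes, and none of the 10 had an unadjusted p under 0.05. DESeq2 and limma-voom called 0. For the interaction of Q175 and sex edgeR, DESeq2 and limma-voom called 0 of the 10, none of which had an unadjusted p under 0.05, and edgeR called 0% of all genes. Within TyrobpKO, however, all 3 females were above all 3 males for each of the 10 genes, against 9.06% of all genes. For Ppp1r1b the TyrobpKO males were at 992 to 1045 CPM and the females at 1239 to 1626. Summed cortical markers moved with this split: they were at 866 to 1135 CPM in the TyrobpKO males and at 547 to 720 in the females. Their part in it was not tested. In the other genotypes sex separated 2 genes: Arpp19 in Q175, with higher females (5.45% of all genes), and Ppp1r1b in WT, with lower females (4.75%).

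In males alone, TyrobpKO against WT called 1 of the 10 genes, Strn, at -0.57 ± 0.11 (edgeR adjusted p = 0.0395), where edgeR called 0.327% of all genes. In females alone the Strn value was -0.02 ± 0.17. The difference between the sexes in the effect of the Tyrobp deletion was not tested. For Q175 against WT, males alone kept 8 calls, where 3.82% of all genes were called. Females alone gave 2, Arpp21 at -0.81 ± 0.16 and Arpp19 at -0.71 ± 0.11 (edgeR adjusted p = 0.0237 and 0.00477), where 0.946% of all genes were called. For Q175_TyrobpKO against TyrobpKO, males alone gave 1, Arpp19 at -0.71 ± 0.10 (edgeR adjusted p = 0.00288), where 0.523% were called. Females alone gave 2, Arpp21 at -0.83 ± 0.16 and Arpp19 at -0.86 ± 0.11 (edgeR adjusted p = 0.0180 and 0.00138), where 1.47% were called. Arpp19 was thus called in both contrasts in either sex.

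The level of most of the genes varied together within genotypes. After the mean of each genotype and sex was subtracted, Pearson's r of log2 CPM over the 24 libraries ran from 0.06 to 0.97 over the 45 pairs, with a median of 0.83. It was highest for Gnal with Strn, at 0.97, and for Ptpn5 with Gng7, at 0.95. Among 8 of the genes r was 0.63 or more. Arpp19 had lower values with these 8, from 0.29 with Ppp1r1b to 0.61 with Strn, and so had Itpka, from 0.06 with Gnal to 0.56 with Ppp1r1b. The lowest pair of the 8, Ppp1r1b with Strn, was close to the highest of these. These values describe libraries that share their dissection and scaling, and carry no p.

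**Figure D3:**
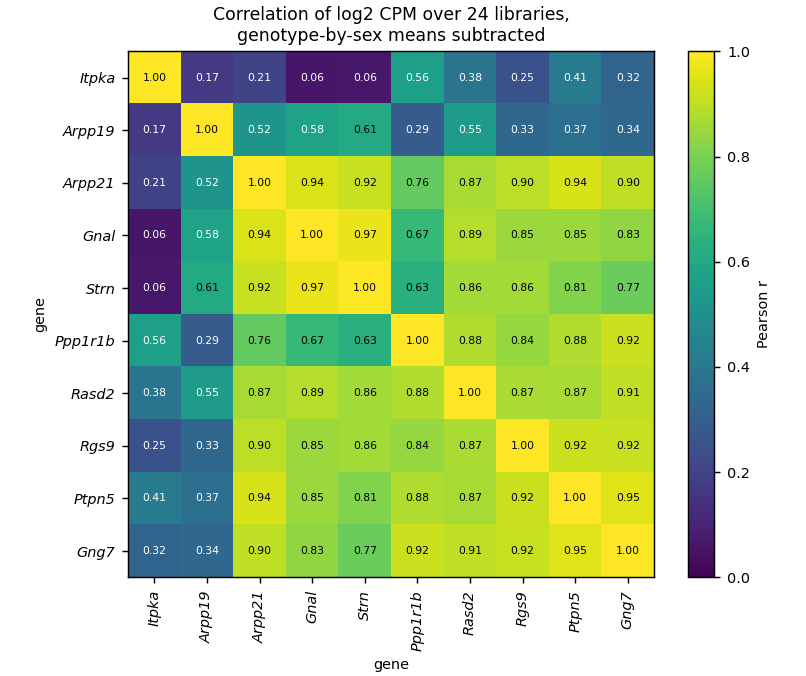
Pearson's r of log2 CPM for each pair of the 10 genes over 24 libraries after the means of genotype and sex were subtracted, with the colour scale from 0 to 1. The block of 8 genes from Arpp21 to Gng7 has values of 0.63 to 0.97, and the rows of Itpka and Arpp19 have lower ones.

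Among the 10212 genes with a mean of at least 10 CPM, those most like Ppp1r1b, itself left out, by the same measure over 24 libraries were Syndig1l (0.96), the adenosine receptor gene Adora2a (0.96), Tbc1d16 (0.95), the transcription factor gene Sp9 (0.94) and Hnrnpm (0.93). Gng7 was the closest of the set, at 0.92 and rank 13, and Arpp19 was farthest, at 0.29 and rank 2720. In Q175 against WT, Syndig1l and Adora2a fell, by 0.64 ± 0.16 and 0.88 ± 0.16 (edgeR adjusted p = 0.0115 and 0.000884). Tbc1d16, Sp9 and Hnrnpm were at 0.03, -0.02 and -0.12 and were not called.

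The genes that varied together varied against the cortical markers. With the means of genotype and sex subtracted, r with the log2 summed level of the 12 cortical markers was -0.87 for Gng7, -0.86 for Arpp21 and -0.67 for Ppp1r1b, and lay between -0.87 and -0.67 for the 8 genes other than Arpp19 and Itpka. For Arpp19 it was -0.22 and for Itpka 0.04. With the summed projection neuron markers, r was 0.85 to 0.96 for the 8 genes, 0.47 for Arpp19 and 0.24 for Itpka. The points are the 24 libraries, each with 1 dissection. WT replicate 5, lowest in WT for all the genes, had the highest cortical level of that genotype, at 895 CPM.

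**Figure D4:**
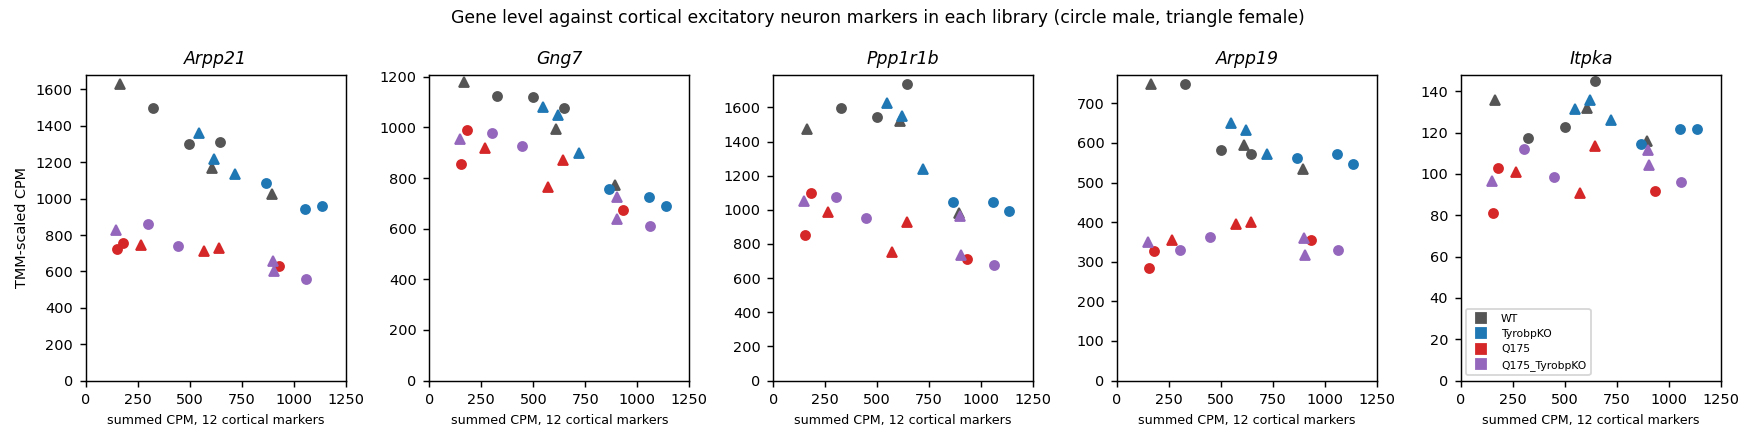
Level of 5 of the genes (TMM-scaled CPM) against the summed CPM of 12 cortical excitatory neuron markers in each of 24 libraries, coloured by genotype, with males as circles and females as triangles. Arpp21 and Gng7 are lower where the cortical level is higher. Arpp21, Arpp19 and Itpka separate the Q175 genotypes from the others at every cortical level.

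Cortical marker level did not differ between genotypes in a called way: edgeR called none of the 12 in any of the 4 genotype contrasts. The summed level averaged 523 CPM in WT and 458 in Q175, with ranges of 164 to 895 and 153 to 933. It averaged 824 CPM in TyrobpKO and 627 in Q175_TyrobpKO, with ranges of 547 to 1135 and 148 to 1060. The median log2 fold change of the 12 markers was 0.75 in TyrobpKO against WT, where the values of the 10 genes were all negative and none was called. With the log2 cortical level as a covariate, a fit added after seeing the data, all 10 genes fell in Q175 against WT, where 7.6% of all genes were called lower, with a median of -0.61. Gnal was then at -0.31 ± 0.09 and Gng7 at -0.38 ± 0.09 (edgeR adjusted p = 0.0144 and 0.00437). In Q175_TyrobpKO against TyrobpKO 8 genes fell, where 4.93% of all genes were called lower, and Gnal and Gng7 were not called (edgeR adjusted p = 0.216 and 0.0902). TyrobpKO against WT called 0 of the 10 in this fit and 0.107% of all genes, with a median of -0.11 in place of -0.27. The interaction of Q175 and Tyrobp genotype called 0 of the 10 and 0.0102% of all genes.

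Other cell type markers were read beside the set in Q175 against WT. Of 16 projection neuron markers 11 fell, with a median of -0.55, among them Scn4b at -1.33 and Penk, the enkephalin precursor, at -1.12 (edgeR adjusted p = 1.22e-06 and 5.51e-05). Gad1, Gad2 and Tac1 were at 0.03, 0.05 and -0.03 and were not called. The summed level of all 16 was 8719 to 13366 CPM in WT and 6261 to 8049 in Q175, without overlap. None of 10 interneuron, 10 microglial or 10 oligodendrocyte markers was called. Of 10 astrocyte markers 3 fell (Slc1a2, Aldoc and Atp1b2) and 1 rose (Gfap). Elavl3 rose among 10 markers of all neurons, and Ly6c1 fell among 8 of endothelium. The Elavl3 call was lost with only the compared libraries fitted and without the filter on low counts (edgeR adjusted p = 0.0580 and 0.0538). Of 10 choroid plexus markers 3 were called higher (Ttr, Sostdc1 and Aqp1). The Ttr call was lost on leaving out any 1 of 10 libraries (WT replicates 1 to 5, TyrobpKO replicates 1 or 4, Q175 replicates 3 or 5, or Q175_TyrobpKO replicate 2) and the Aqp1 call any 1 of 7 (WT replicates 1, 2, 4, 5 or 6, or Q175 replicates 3 or 5), with edgeR adjusted p up to 0.250 and 0.202. In Q175_TyrobpKO against TyrobpKO 7 of the 16 projection neuron markers fell, with a median of -0.33, and so did 4 astrocyte, 3 oligodendrocyte and 2 endothelial markers.

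The paralogs of the 10 genes did not follow a single direction. Of 19 tested, 4 fell and 2 rose in Q175 against WT, with a median of -0.06. Ppp1r1a, which encodes another inhibitor of protein phosphatase 1, averaged 59.8 ± 5.63 CPM in WT and 37.3 ± 6.40 in Q175 (SD, n = 6), a fall of 0.68 ± 0.09 (edgeR adjusted p = 7.55e-06). Ptpn7, a relative of Ptpn5, fell by 1.34 ± 0.18 from a low level, 12.7 to 5.04 CPM (edgeR adjusted p = 2.38e-05). Rgs11 fell by 0.65 ± 0.13 and Rgs7 by 0.21 ± 0.06, both relatives of Rgs9 (edgeR adjusted p = 0.00168 and 0.0123). The gamma subunit genes Gng3 and Gng4 rose, by 0.61 ± 0.11 and 0.89 ± 0.20 (edgeR adjusted p = 0.000979 and 0.00542), where Gng7 was at -0.31. With only the compared libraries fitted Gng4 was not called (edgeR adjusted p = 0.0677). Not called were R3hdm1 (-0.27) and R3hdm2 (-0.06), Ptprr (0.26), Rgs6 (-0.21), Rasd1 (-0.37), Gnas (0.12), Gng2 (-0.10), Gng12 (0.16), Strn3 (0.01), Strn4 (-0.11), Itpkb (0.28) and Itpkc (0.17). Without Q175 replicate 1, R3hdm1 was called (edgeR adjusted p = 0.0299). In Q175_TyrobpKO against TyrobpKO, 3 fell (Ppp1r1a, Ptpn7 and Rgs11) and Itpkc rose, by 0.48 ± 0.13 (edgeR adjusted p = 0.0247).

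Gnal was set against Gnas, which encodes the widely expressed stimulatory alpha subunit, by their ratio within a library. The mean log2 ratio of counts was 4.10 ± 0.64 in WT and 3.71 ± 0.41 in Q175 (SD, n = 6), a difference of -0.39 (2-sided exact permutation test over 924 splits, p = 0.242, adjusted over 2 tests 0.485). It was 3.56 ± 0.51 in TyrobpKO and 3.36 ± 0.55 in Q175_TyrobpKO, a difference of -0.20 (2-sided exact permutation test, p = 0.539, adjusted 0.539). Gnas lies under the antisense gene Gm20721, and whether this lowered its counts was not tested, so the size of the ratio is uncertain.

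Around the set, 105 genes of 8 lists of upstream and downstream partners were tested beside the paralogs. In Q175 against WT 24 fell and 5 rose, or 27.6% against 9.63% of all genes. In Q175_TyrobpKO against TyrobpKO 14 fell and 3 rose, or 16.2% against 5.86%. None was called in the contrasts across the Tyrobp deletion, by edgeR.

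The kinases upstream of DARPP-32 were read in Q175 against WT, where 9.63% of all genes were called in either direction. Of 6 protein kinase A subunits, Prkar2a, a regulatory subunit, rose by 0.28 ± 0.07 (edgeR adjusted p = 0.0122), a call lost with only the compared libraries fitted (0.0597). It averaged 46.7 ± 6.05 CPM in WT and 56.9 ± 5.68 in Q175 (SD, n = 6). Prkar2b was at -0.17 ± 0.08 and was not called (edgeR adjusted p = 0.221). Of 10 other kinases of DARPP-32 and ARPP-19, Cdk5r2, an activator of Cdk5, fell by 0.31 ± 0.09 and the casein kinase gene Csnk1d rose by 0.15 ± 0.04 (edgeR adjusted p = 0.0289 and 0.0291). The call of Cdk5r2 was lost without WT replicates 1 or 2 or Q175 replicates 3, 5 or 6 (0.0580 to 0.105), and that of Csnk1d without WT replicates 1 or 5 or Q175 replicates 2 or 4 (0.0537 to 0.0746). Both were also lost with only the compared libraries fitted (0.0780 and 0.129) and without the filter on low counts (0.0622 and 0.165). The Cdk5r2 call was lost with scaling by total counts only as well (0.0565).

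Among 19 genes of protein phosphatases 1, 2A and 2B, 8 fell and 1 rose (Ppp2r3a, a regulatory subunit of protein phosphatase 2A, by 0.28 ± 0.07). Ppp1r9b, which encodes spinophilin, a partner of protein phosphatase 1 in dendritic spines, ranged from 1030 to 1384 CPM in WT and from 701 to 918 in Q175. The groups did not overlap, and the fall was 0.53 ± 0.07 (edgeR adjusted p = 1.54e-05). Ppp3ca, a catalytic subunit of calcineurin, the phosphatase that dephosphorylates DARPP-32, fell by 0.49 ± 0.08 (edgeR adjusted p = 0.000174). Both fell also in Q175_TyrobpKO against TyrobpKO, by 0.34 ± 0.07 and 0.40 ± 0.08 (edgeR adjusted p = 0.00421 and 0.00260).

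Of 16 other G protein subunits, 3 fell and 1 rose (Gnai2, by 0.19 ± 0.05), with a median of 0.08. Gnb5, the beta subunit that binds RGS9, fell by 0.43 ± 0.08 and Gnao1, an inhibitory alpha subunit, by 0.21 ± 0.05 (edgeR adjusted p = 0.000426 and 0.0118). With only the compared libraries fitted Gnao1 was not called (edgeR adjusted p = 0.0556). Of 16 RGS genes and anchors, 5 fell and 1 rose, with a median of -0.24. Rgs7bp, which anchors RGS proteins of this family to the membrane, fell by 0.48 ± 0.10 (edgeR adjusted p = 0.00238). Rgs14 averaged 66.0 ± 10.3 CPM in WT and 33.4 ± 1.48 in Q175 (SD, n = 6), a fall of 0.98 ± 0.09 (edgeR adjusted p = 2.08e-08). Rgs19 ran the other way, from 6.37 to 8.39 CPM in WT and 10.7 to 14.3 in Q175, a rise of 0.77 ± 0.09 (edgeR adjusted p = 2.71e-06). Neither gene had overlapping groups. Rgs14 and Rgs19 were called in the same directions in Q175_TyrobpKO against TyrobpKO, at -0.66 ± 0.09 and 0.64 ± 0.09 (edgeR adjusted p = 1.80e-05 and 5.95e-05).

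Of 14 genes for targets of STEP and the MAP kinase module, 3 fell, among them Hras, a small GTPase upstream of the module, at -0.34 ± 0.08, and Ptk2b, a tyrosine kinase that STEP dephosphorylates, at -0.25 ± 0.06 (edgeR adjusted p = 0.00591 and 0.0124). The third was Grin2b, a subunit of the NMDA receptor, at -0.36 ± 0.10, and without WT replicate 4 Ptk2b was not called (edgeR adjusted p = 0.0523). Of 12 partners of striatin, 2 fell: Slmap by 0.45 ± 0.08 and Cttnbp2 by 0.38 ± 0.08 (edgeR adjusted p = 0.00078 and 0.00225). Of 12 genes of inositol phosphate metabolism, 2 fell: Plcb1, a phospholipase C, by 0.44 ± 0.08, and Ippk, the kinase of inositol pentakisphosphate, by 0.44 ± 0.09 (edgeR adjusted p = 0.000706 and 0.00116). These lists had medians of -0.01, 0.02 and -0.06. In the paralogs and in each of the 8 lists of partners the median was nearer 0 than that of the 10 genes.

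**Figure D5:**
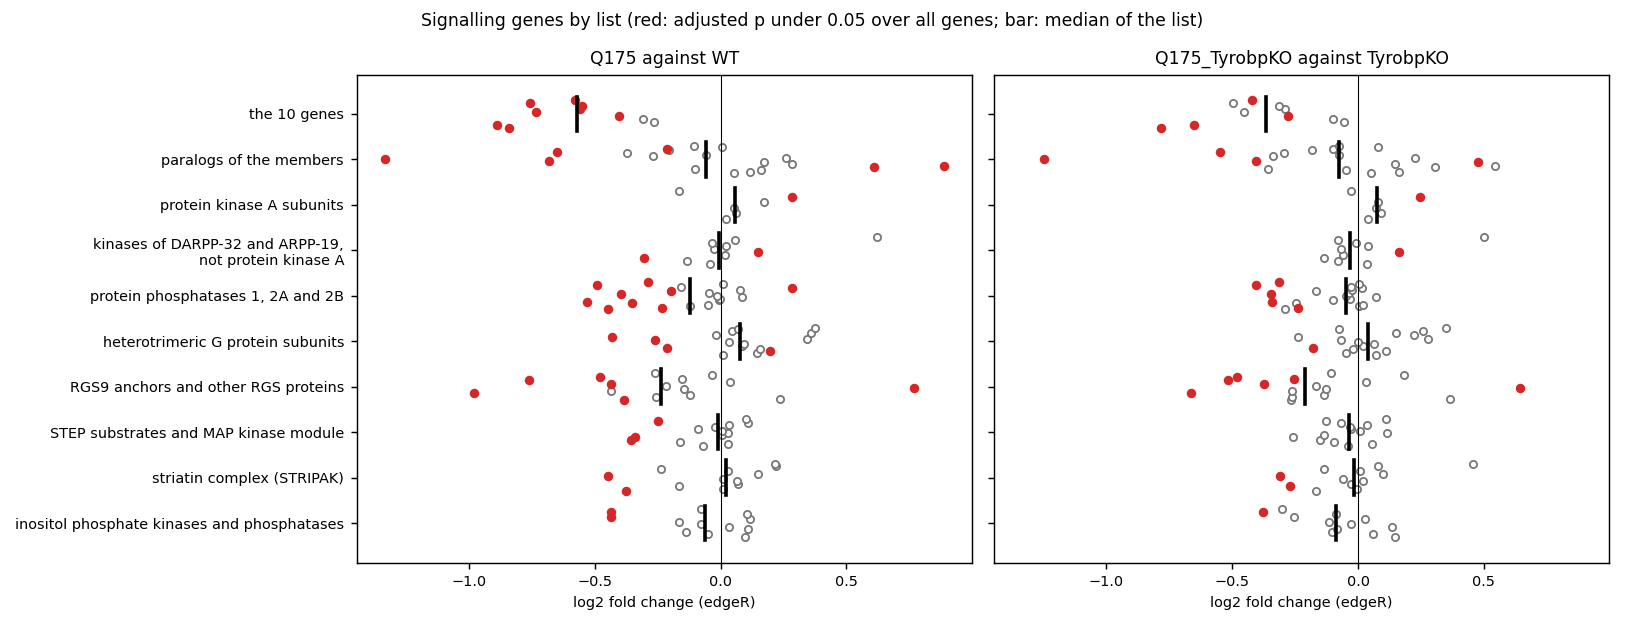
Log2 fold change from edgeR of each gene of the set, of its paralogs and of 8 lists of partners for Q175 against WT (left) and Q175_TyrobpKO against TyrobpKO (right), with red points for an adjusted p under 0.05 over all genes and bars for the list medians. The median of the 10 genes, at -0.57 and -0.37, lies farthest below 0 in both panels, and each other list holds genes on both sides of 0.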

How the data were processed

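Whole-striatum RNA of 24 mice was sequenced. The authors deposited raw read counts per gene, whole numbers with no normalization, for 54532 genes. The submitters' processing notes name STAR, featureCounts, DESeq2 and the build GRCh38, without roles. That build is human, while 53585 of the table's coordinates equal those of the mouse annotation GENCODE M21 (GRCm38). Use of strand in counting is not given in the sources used here, so overlapping genes (beside Arpp21, Ppp1r1b, Ptpn5, Gnal and Gng7) may share or lose reads.

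The counts were fitted with edgeR 4.0.16 in R 4.3.3 (TMM, filterByExpr by genotype, robust quasi-likelihood, a mean per genotype and a sex term, all 24 libraries), with Benjamini-Hochberg adjustment over 19667 genes. The biological coefficient of variation was 15.9%. Intervals are 1.96 standard errors either side. Depth was 25482686 to 34626720 counts, and no pair of libraries of a genotype agreed within sampling noise. Each library is labelled as another animal, and p-values measure the spread between these libraries. Alternatives were other normalizations, DESeq2 1.42.0, limma-voom (limma 3.58.1), no filter, no sex term, each sex alone, the compared libraries alone and leaving out each library. A fit with the cortical marker level as covariate, and the alternatives for paralogs and partners, were chosen after seeing the data.

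The 10 genes, the partner and marker lists and the tests were chosen with earlier results of these data known. From each list the 2 genes of smallest p in Q175 against WT are named, all paralogs, and any gene called across the Tyrobp deletion. Single markers, Rgs7bp, Grin2b, Ppp2r3a and Gnai2 were named after their values were seen. Ppp1r1c and Rgs9bp were below the count filter.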

Additional observations from a re-analysis of the deposited data

Results flagged for a closer look

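In all, 3 values stood apart from the other libraries of their genotype by Dixon's test, among 44 groups of 6 libraries examined, and chance alone flags about 1 in 20 groups. WT replicate 5 had 983 CPM of Ppp1r1b where the other 5 WT libraries had 1475 to 1739, and 566 CPM of Rasd2 where they had 780 to 899. Its summed cortical markers, at 895 CPM, were the highest of its genotype. Q175 replicate 1 had 629 CPM of Arpp21 where the other 5 Q175 libraries had 713 to 756, and its summed cortical markers, at 933 CPM, were also the highest of its genotype. The part of the cortical markers in these values was not tested. With either library left out, 8 of the 10 genes were called in Q175 against WT.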

How the results depend on the processing

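The 10 genes gave 700 log2 fold changes in both Q175 contrasts under 35 other settings, of which 667 kept their side of the threshold, 23 lost a call, 10 gained one and none of those called changed sign. Uncalled values of Rasd2, Gnal and Gng7 in Q175_TyrobpKO against TyrobpKO turned positive in males alone (0.01, 0.21 and 0.22). Each sex alone has 3 libraries a genotype. In females alone the calls were 2 of the 10 in Q175 against WT, 2 in Q175_TyrobpKO against TyrobpKO (median -0.63) and 4 and 8 of the 124 paralogs and partners. In males alone they were 1 of the 10 in Q175_TyrobpKO against TyrobpKO, with values from -0.71 for Arpp19 to 0.22 for Gng7. Males alone also gave 1 call in TyrobpKO against WT (Strn) and 2 paralogs and partners in Q175_TyrobpKO against TyrobpKO. The cortical covariate raised the counts in Q175_TyrobpKO against TyrobpKO to 8 of the 10 and 33 paralogs and partners. The fits of 1 sex use fewer libraries, and the cause of these shifts was not otherwise tested. Leaving out each library in turn gave 8 of the 10 in Q175 against WT every time and 3 to 5 in Q175_TyrobpKO against TyrobpKO, medians of -0.65 to -0.52 and -0.42 to -0.29, 31 to 37 and 14 to 23 paralogs and partners (35 and 21 with all libraries), and a difference in the log2 ratio of Gnal to Gnas of -0.50 to -0.21 and -0.33 to -0.04. The contrasts across the Tyrobp deletion, the interactions and the sex contrast gave 0 each time. No paired analysis was possible because the replicate numbers only name libraries and the labels pair none. Apart from Rgs7bp, Grin2b, Ppp2r3a and Gnai2, whose single calls were not followed under other settings, 21 paralogs and partners were named as called in Q175 against WT. Of these, 17 lost the call in females alone, 6 in males alone and 5 with only the compared libraries fitted. Without the filter on low counts 2 lost it, and with total counts only 1 did. Depth did not limit the 10 genes, whose levels were 81.0 CPM or more in every library.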
